A study of Homo sapiens with 6 samples.

Results

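The BCL2 family genes described here were the 10 genes BCL2, BCL2L1, BCL2L2, MCL1, BAK1, BAD, BID, BIK, BCL2L11 and PMAIP1, found by gene symbol among the 32192 genes of the count table. BAX and BBC3 belong to the same family and were treated with its other genes, not as members of this set. All 10 members were present in the count table and in the FPKM table, and all 10 passed the filter on low counts. RNA was sequenced from A549 cells, an established line of human lung adenocarcinoma and thus of non-small cell lung cancer, as polyadenylated, stranded, paired-end libraries. The 3 APEX1-OE libraries came from cells given an APEX1 overexpression plasmid (pIRES-hrGFP-1a, with a FLAG tag fused to the 3′ end of APEX1), and the 3 Ctrl libraries came from cells given a control plasmid. Both groups therefore shared the cell line and the transfection, which was transient and reached an unstated share of the cells. APEX1 is an endonuclease of base excision repair that also acts on transcription factors through its redox activity. The study asked whether APEX1, by way of alternative splicing, bears on the proliferation and apoptosis of non-small cell lung cancer.

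BCL2 family proteins decide whether the outer membrane of the mitochondrion stays intact. The anti-apoptotic members hold the pore-forming proteins BAX and BAK in check, and the BH3-only members, which are made or activated under stress, bind the anti-apoptotic members or the pore formers through a short helix, the BH3 motif. When the pore formers assemble, cytochrome c leaves the mitochondrion and caspases are activated. Lung cancer cells commonly rely on BCL-XL and MCL1 among the anti-apoptotic proteins.

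The BH3 motif is what the members have in common in sequence, so its coding bases are shown first. Each run of 24 bases was read from the GENCODE transcript of the gene on GRCh38, 5′ to 3′ along the coding strand. The capitals mark the codon of the conserved leucine (a methionine in BCL2L2) and the 2 codons of the conserved glycine and aspartate (serine and aspartate in BAD). The 4 anti-apoptotic members carry them at chr18:63318358-63318381 (BCL2, minus strand), chr20:31721931-31721954 (BCL2L1, minus), chr14:23307900-23307923 (BCL2L2, plus) and chr1:150578874-150578897 (MCL1, minus).
BCL2: accCTCcgccaggccGGCGACgac
BCL2L1: gcgCTGagggaggcaGGCGACgag
BCL2L2: gccATGcgggcagctGGAGATgag
MCL1: accTTAcgacgggttGGGGATggc
The pore-forming member BAK1 carries it at chr6:33575396-33575419 on the minus strand. The BH3-only members carry it at chr11:64271631-64271654 (BAD, minus), chr22:17739424-17739447 (BID, minus), chr22:43127713-43127736 (BIK, plus), chr2:111150100-111150123 (BCL2L11, plus) and chr18:59902670-59902693 (PMAIP1, plus).
BAK1: cagCTCgccatcatcGGGGACgac
BAD: gagCTCcggaggatgAGTGACgag
BID: cacCTCgcccaggtcGGGGACagc
BIK: cggCTGgcctgcatcGGGGACgag
BCL2L11: gagTTGcggcgtattGGAGACgag
PMAIP1: caaCTCaggagatttGGAGACaaa
The leucine, glycine and aspartate were all present in 8 of the 10. All 10 windows lay in coding exons, and the encoded proteins ranged from 54 residues for PMAIP1 to 350 residues for MCL1.

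Each library held 28131955 to 41009197 counts. APEX1, the overexpressed gene, stood at 618, 680.3 and 768 FPKM (fragments per kilobase, scaled to library depth) in APEX1-OE and at 129, 126 and 124 FPKM in Ctrl, so the labels held in all 6 libraries. Its log2 fold change was 2.42 (SE 0.171, adjusted p = 0.00809 by the quasi-likelihood test of edgeR, Benjamini-Hochberg adjusted), and transcripts of the plasmid were not separated from those of the chromosomal gene. The largest difference between the libraries was not that of the groups: on the first principal component, with 72.6% of the variance, APEX1-OE replicate 1 stood with Ctrl replicates 1 and 2 (the first library set), and APEX1-OE replicates 2 and 3 stood with Ctrl replicate 3 (the second library set). The sets differed by GC content. Within Ctrl, genes of 23.5% to 41% GC were higher in the second set by a median of 0.68 on the log2 CPM scale, and genes of 58.4% to 85.5% GC were lower there (median -0.53). Of the markers of A549, KRT8, KRT18, AKR1B10 and ALDH1A1 were at 461 FPKM or more in every library, CDH1 was at 4.52 to 10.71 FPKM and EPCAM only at 0.18 to 0.52 FPKM. Of the 17 leukocyte, endothelial, fibroblast and erythroid markers, PTPRC and HBB had no FPKM value, CD68 was at 1 to 1.49 FPKM and the other 14 were at 0.73 FPKM or below.

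None of the 10 members passed the test between APEX1-OE and Ctrl. With condition alone in the edgeR fit, 0 of 10 had an adjusted p under 0.05, against 0.00589% of the 16971 genes tested, which was APEX1 alone. At an unadjusted p under 0.05 it was also 0 of 10, against 0.695% of all genes. DESeq2 gave 0 of 10 adjusted and 1 of 10 unadjusted, the latter against 0.625% of all genes. That member was PMAIP1 (unadjusted p = 0.0322, DESeq2). In the FPKM table, limma on log2(FPKM + 1) called 0 of the 9 members above its filter (all but BCL2), against 0.0073% of the genes tested there, and at an unadjusted p under 0.05 also 0, against 0.402%. The member with the largest difference was PMAIP1, with a log2 fold change of 0.70 (SE 0.327, 95% interval -0.06 to 1.45). The median log2 fold change was 0.06 over the members and 0.03 over all genes tested. Higher in APEX1-OE were 6 of 10 members, against 9759 of the 16971 genes tested. The labels do not say whether the replicates were separate cultures, so the p-values measure the spread between these libraries alone.

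**Figure D1:**
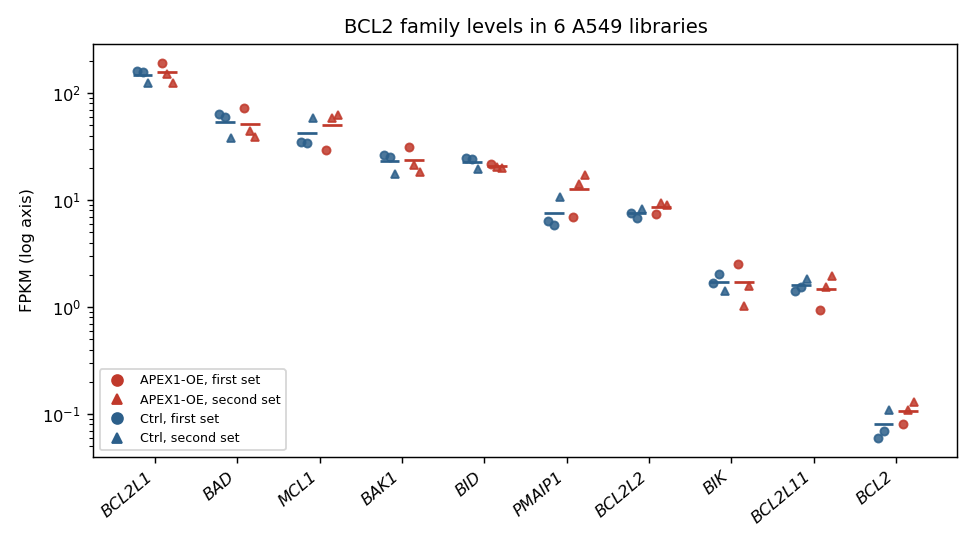
FPKM of the 10 members in the 6 libraries on a log axis, ordered by the mean in Ctrl, with a short line at each group mean and the library set shown by the symbol. BCL2L1 stood highest and BCL2 lowest in every library, and the APEX1-OE and Ctrl points of every member overlapped.

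The levels of the members spanned more than 3 orders of magnitude, and their order was much the same in both groups. In FPKM, which is per length, the mean level in Ctrl fell from BCL2L1 (148 ± 20.1, SD, n = 3) through BAD (54.0 ± 14.3), MCL1 (42.7 ± 13.99), BAK1 (23.2 ± 4.90), BID (22.8 ± 2.92), PMAIP1 (7.64 ± 2.71), BCL2L2 (7.55 ± 0.695), BIK (1.72 ± 0.321) and BCL2L11 (1.597 ± 0.230) to BCL2 (0.08 ± 0.0265). Of the 9 pairs of neighbours in that order, the Ctrl ranges overlapped in 4. These were BAD and MCL1, BAK1 and BID, PMAIP1 and BCL2L2, and BIK and BCL2L11. BAD stood above MCL1 in 3 of the 6 libraries, namely those of the first set. BCL2L1 stood above BAD, BID above PMAIP1, BCL2L2 above BIK and BCL2L11 above BCL2 in 6 of 6 libraries, and MCL1 stood above BAK1 in 5 of 6.

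Among the anti-apoptotic genes, BCL2L1 held most of the RNA. BCL2L1 (ENSG00000171552.12, chr20:31664452-31723989, minus strand) encodes BCL-XL and, through another 5′ splice site, the pro-apoptotic BCL-XS, and the counts per gene sum both. In replicate order, its FPKM was 192, 152 and 125 for APEX1-OE and 162, 158 and 125 for Ctrl, the order used for every member below. The library of the first set was the highest in APEX1-OE, the library of the second set was the lowest in Ctrl, and the groups overlapped (exact two-sided permutation test, p = 1). The log2 fold change was 0.08 (95% interval -0.55 to 0.70, adjusted p = 1, edgeR). BCL2L1 made up 63.5% to 83.8% of the summed FPKM of the 4 anti-apoptotic genes in each library, and the sum itself was 215 ± 17.0 in APEX1-OE and 199 ± 5.97 in Ctrl (SD, n = 3 each). The opposite strand holds ABALON, a long noncoding RNA with 7347 counts in the 6 libraries, and no source used here gives the use of strand in counting. The same limit holds for BAD with GPR137, BCL2L11 with MIR4435-2HG, MCL1 with ADAMTSL4, BAK1 with GGNBP1 and BCL2L2 with PPP1R3E.

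MCL1 (ENSG00000143384.12, chr1:150560895-150579738, minus strand) encodes a short-lived anti-apoptotic protein that binds BAK, BIM and NOXA. Its FPKM was 29.6, 58.6 and 62.5 in APEX1-OE and 34.9, 34.3 and 58.8 in Ctrl. The 3 low values were those of the first library set and the 3 high values those of the second, in both groups. The mean was 50.2 ± 17.9 in APEX1-OE and 42.7 ± 13.99 in Ctrl (SD, n = 3 each, exact two-sided permutation test, p = 0.9). Between the groups the log2 fold change was 0.20 (SE 0.280), with an adjusted p of 1 from edgeR. The ratio of MCL1 to BCL2L1, both in FPKM, moved from 0.154 to 0.501 across the libraries, and it too followed the library set: it was 0.216 and 0.217 in Ctrl replicates 1 and 2, and 0.470 in Ctrl replicate 3.

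BCL2L2 (ENSG00000129473.9, chr14:23298790-23311751, plus strand) encodes BCL-W, an anti-apoptotic protein best known from testis and neurons. It was the only member whose APEX1-OE and Ctrl libraries did not overlap on normalized counts, at 36.6, 39.9 and 36.7 CPM (counts scaled to the library size after TMM normalization) against 34.4, 31.8 and 34.3 CPM. Of all genes tested, 3.39% had groups that did not overlap in this way. In FPKM the groups overlapped, at 7.36, 9.49 and 8.98 in APEX1-OE and 7.54, 6.86 and 8.25 in Ctrl. In edgeR the log2 fold change was 0.17 (SE 0.186, 95% interval -0.26 to 0.60, adjusted p = 1, edgeR). The readthrough gene BCL2L2-PABPN1, on the same strand, shares exons with BCL2L2 and had more counts, at 80.3 to 111 CPM per library, so the split of reads between these genes is uncertain. Their sum was 148, 132 and 117 CPM in APEX1-OE and 116, 117 and 115 CPM in Ctrl, and the lowest APEX1-OE library lay just inside the Ctrl range.

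BCL2 (ENSG00000171791.11, chr18:63123346-63320128, minus strand), the anti-apoptotic gene that gave the family its name, was nearly silent. It had 21, 41 and 42 reads in APEX1-OE and 15, 22 and 37 reads in Ctrl, and 0.06 to 0.13 FPKM in all libraries. Within each group the libraries of the second set were the higher ones. Its log2 fold change of 0.41 had a 95% interval of -0.29 to 1.10 (adjusted p = 1, edgeR), which includes 0.

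BAK1 (ENSG00000030110.12, chr6:33572547-33580293, minus strand), the pore-forming member, did not differ beyond the spread between libraries. Its FPKM was 31.1, 21.5 and 18.4 in APEX1-OE and 26.4, 25.5 and 17.5 in Ctrl. The libraries of the first set were the high ones in both groups. Its log2 fold change was 0.04 (SE 0.327, 95% interval -0.72 to 0.79, adjusted p = 1, edgeR).

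The BH3-only genes split into those that were high in the first library set and those that were high in the second. BAD (ENSG00000002330.13, chr11:64269830-64284704, minus strand), a sensitizer that 14-3-3 proteins hold in the cytosol when phosphorylated, was the most abundant of them. Its FPKM was 72.3, 44.02 and 39.0 in APEX1-OE and 64.4, 59.8 and 37.7 in Ctrl, high in the first set and low in the second. BID (ENSG00000015475.18, chr22:17734138-17774770, minus strand), which caspase-8 cleaves to link death receptors to mitochondria, was at 22.0, 20.3 and 19.8 FPKM in APEX1-OE and at 24.6, 24.4 and 19.5 FPKM in Ctrl. The log2 fold changes were -0.05 for BAD (SE 0.369) and -0.16 for BID (SE 0.222), both with an adjusted p of 1 from edgeR.

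BIK (ENSG00000100290.2, chr22:43110750-43129712, plus strand), a BH3-only protein of the endoplasmic reticulum, had 48 to 87 reads per library. Its FPKM was 2.51, 1.02 and 1.57 in APEX1-OE and 1.69, 2.05 and 1.41 in Ctrl. The APEX1-OE libraries held both the highest and the lowest value, and the log2 fold change of -0.02 had the widest 95% interval of the members (-0.97 to 0.93, edgeR). BCL2L11 (ENSG00000153094.21, chr2:111119378-111168444, plus strand) encodes BIM, which binds all anti-apoptotic proteins and is a target of FOXO factors. Its FPKM was 0.93, 1.55 and 1.94 in APEX1-OE and 1.40, 1.54 and 1.85 in Ctrl. APEX1-OE replicate 1 was the lowest library, the others overlapped, and the log2 fold change was -0.15 (SE 0.260, adjusted p = 1, edgeR).

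PMAIP1 (ENSG00000141682.11, chr18:59899996-59904305, plus strand) encodes NOXA, a BH3-only protein that binds MCL1 and is transcribed in response to p53 and to ATF4. Its FPKM was 6.95, 14.04 and 17.0 in APEX1-OE and 6.37, 5.81 and 10.8 in Ctrl. The lowest APEX1-OE library lay below Ctrl replicate 3, so the groups overlapped. The mean was 12.7 ± 5.17 in APEX1-OE and 7.64 ± 2.71 in Ctrl (SD, n = 3 each), a ratio of means of 1.66 (exact two-sided permutation test, p = 0.2, where 3 libraries against 3 allow no p under 0.1). The log2 fold change of 0.70 had an adjusted p of 1 in edgeR's quasi-likelihood test.

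The differences between the library sets were larger than those between the groups for most members, as over all genes. Over all genes tested, the median size on the log2 scale was 0.498 between the sets and 0.134 between the groups. On normalized counts, the sets did not overlap for 8 of the 10 members (all but BCL2L2 and BCL2L11), against 66.4% of all genes. The sets were themselves read from the first principal component of these libraries, so such a split was partly given in advance. Within Ctrl, replicate 3 stood above the mean of replicates 1 and 2 by 0.68 for PMAIP1, 0.62 for MCL1, 0.58 for BCL2, 0.19 for BCL2L11 and 0.05 for BCL2L2 on the log2 CPM scale. It stood below that mean for BID (-0.48), BCL2L1 (-0.50), BIK (-0.53), BAK1 (-0.71) and BAD (-0.86). Within APEX1-OE, the mean of replicates 2 and 3 differed from replicate 1 in the same direction for each member, from 0.89 for PMAIP1 to -1.07 for BAD and -1.22 for BIK. PMAIP1 had the lowest GC content of the members at 36.7% of its longest transcript, MCL1 had 44.7%, BCL2 had 45.6%, and BAD had the highest at 66.3%. The part of GC content in these differences was not tested member by member, and the correction given below adjusts for it over all genes.

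**Figure D2:**
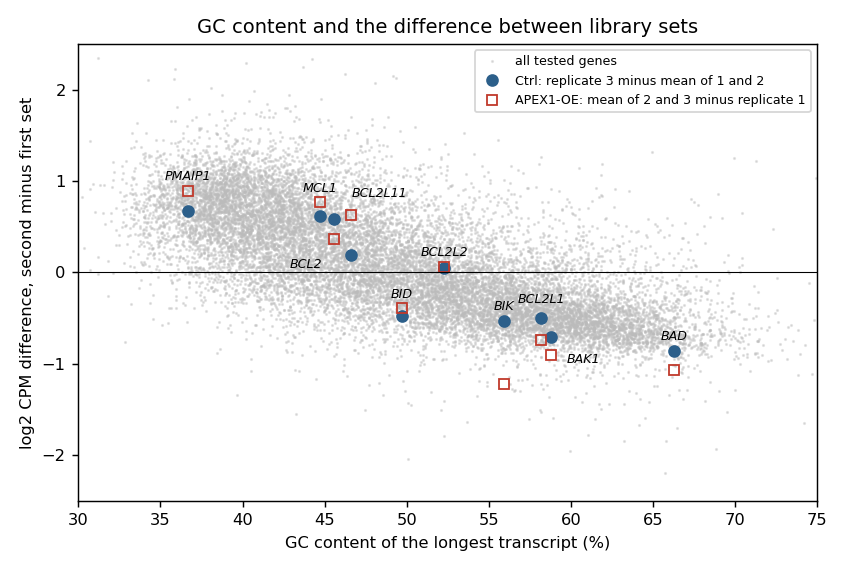
Log2 CPM difference between the second and the first library set against the GC content of the longest transcript. Circles are the members within Ctrl, squares the members within APEX1-OE and grey points all tested genes within Ctrl. PMAIP1 (36.7% GC) lay at the upper left and BAD (66.3% GC) at the lower right, along the band of all genes.

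Since the sets cut across the groups, APEX1-OE and Ctrl were also compared within each set, where the first set held 1 APEX1-OE library and 2 Ctrl libraries and the second 2 and 1. PMAIP1 was higher in APEX1-OE within both, at 20.1 against 16.9 and 15.7 CPM in the first set and at 34.4 and 40.5 against 26.1 CPM in the second. These were log2 differences of 0.30 and 0.52. On CPM, BCL2, BCL2L2, BAK1 and BAD also had every APEX1-OE library above every Ctrl library of its set. With PMAIP1 that made 5 of 10 members, against 17.8% of all genes. Among these 5, BAK1 and BAD had similar profiles over the 6 libraries (given below), so they are not separate counts. Every APEX1-OE library lay below for 0 of 10, against 10.0% of all genes. Some margins were small, as for BAD in replicate 3 of APEX1-OE (58.6 CPM) and of Ctrl (57.8 CPM). In FPKM this order failed for BCL2L2 in the first set (7.36 in APEX1-OE replicate 1, 7.54 in Ctrl replicate 1). It also failed for BCL2 in the second set (0.11 in both APEX1-OE replicate 2 and Ctrl replicate 3). BCL2L1 was higher by 0.38 and 0.13, but APEX1-OE replicate 3 (404 CPM) lay below Ctrl replicate 3 (413 CPM). MCL1 differed by -0.11 and 0.03, BID by -0.05 and 0.04, BCL2L11 by -0.54 and -0.10, and BIK by 0.53 and -0.16 in the first and second set. The libraries of a set were not alike. On the first principal component, APEX1-OE replicate 1 stood at -58.51 and Ctrl replicates 1 and 2 at -32.66 and -31.06. In the second set, APEX1-OE replicates 2 and 3 stood at 33.13 and 49.9 and Ctrl replicate 3 at 39.19. In the first set this difference fell between the groups, and its part in the values above was not tested.

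With the library set as a term beside the condition in edgeR, the standard errors of all 10 members shrank and 4 of 10 had an unadjusted p under 0.05, all higher in APEX1-OE, against 8.61% of all genes that were higher at that threshold. Among these 4, BCL2L1, BAK1 and BAD had similar profiles over the 6 libraries (given below), so they are not separate counts. None of the members passed after adjustment (0 of 10, against 0.0236% of all genes). The log2 fold change was 0.42 for PMAIP1 (SE 0.115, 95% interval 0.17 to 0.67, adjusted p = 0.350), 0.28 for BAK1 (SE 0.102, adjusted p = 0.373), 0.26 for BCL2L1 (SE 0.0988, adjusted p = 0.374) and 0.23 for BAD (SE 0.0975, adjusted p = 0.397). MCL1, the partner of NOXA, stood at -0.04 (95% interval -0.22 to 0.15), and BCL2L11 at -0.30 (95% interval -0.62 to 0.01, adjusted p = 0.443). The sets were read from the same libraries, so this term was chosen with the data known. It does not adjust for differences between the libraries of 1 set.

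With a correction for GC content and length added to that fit, 3 of 10 members had an unadjusted p under 0.05 and were higher (7.77% of all genes), and 0 of 10 passed after adjustment (0.0707% of all genes). PMAIP1 kept its size, at 0.45 (SE 0.0786, 95% interval 0.28 to 0.62, adjusted p = 0.0560, edgeR). BCL2L1 stood at 0.15, BAK1 at 0.16 and BAD at 0.08, each less than without the correction.

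The number of members that passed in the fit with the library set, 0 of 10 with all 6 libraries, changed on leaving out 1 library. When APEX1-OE replicate 3 was left out of the fit with the library set, 5 of 10 members passed the adjusted threshold, but so did 16.6% of all genes. These members were BCL2L1 (0.34), BAK1 (0.34), BAD (0.29) and PMAIP1 (0.35, adjusted p = 0.0158), which were higher, and BCL2L11 (-0.40), which was lower. Without any other single library, 0 of 10 passed in that fit. Over these 6 fits the log2 fold change of PMAIP1 lay between 0.30 and 0.49. The fits at both ends were unlike the others. Without APEX1-OE replicate 1 (0.49) the first set held only Ctrl libraries. Without Ctrl replicate 3 (0.30) the second set held only APEX1-OE libraries. In each of them the comparison of the groups came from the other set alone.

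**Figure D3:**
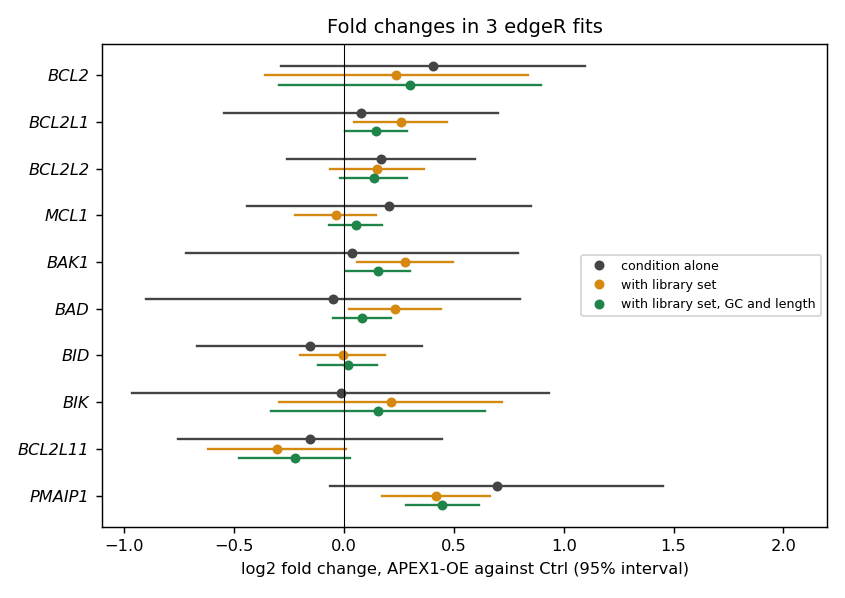
Log2 fold change of each member between APEX1-OE and Ctrl with its 95% interval in 3 edgeR fits: condition alone, with the library set as a term, and with a correction for GC content and length as well. The intervals with condition alone all include 0. Those of PMAIP1 (0.17 to 0.67 with the library set), BCL2L1 and BAK1 lie above 0 in both other fits, and that of BAD only in the fit with the library set.

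PMAIP1 and MCL1 were both higher in the second library set. Their ratio, chosen after their values were seen, varied less within each group than either gene. In FPKM it was 0.234, 0.240 and 0.272 in APEX1-OE and 0.182, 0.170 and 0.183 in Ctrl. The lowest APEX1-OE value exceeded the highest Ctrl value, with means of 0.249 ± 0.0206 and 0.178 ± 0.00758 (SD, n = 3 each). All 45 ratios between members were compared on CPM, not on FPKM. On CPM, 3 of the 45 had groups that did not overlap, and they were PMAIP1 with MCL1, PMAIP1 with BCL2L11 and BCL2 with BCL2L11. With each gene in turn as the numerator, on log2 CPM, the ratio to MCL1 was higher without overlap for 1.48% of the other tested genes. For the ratio to BCL2L11, which enters the other 2 pairs, it was 7.71% of them. With PMAIP1 as the denominator, the ratio was lower without overlap for 29.0% of them. Counted in either direction, as the 3 of 45 were, the groups did not overlap for 97 (BIK as the denominator) to 4934 (PMAIP1) of 16970 genes. It was 2388 for BCL2, 1356 for BCL2L11 and 785 for MCL1. Whether 3 of 45 exceeds such shares was not tested. The sums over roles did not separate the groups. The summed FPKM of the 6 pro-apoptotic members was 112 ± 20.8 in APEX1-OE and 111 ± 19.4 in Ctrl, and the ratio of the anti-apoptotic to the pro-apoptotic sum was 1.95 ± 0.235 and 1.83 ± 0.298 (SD, n = 3 each).

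**Figure D4:**
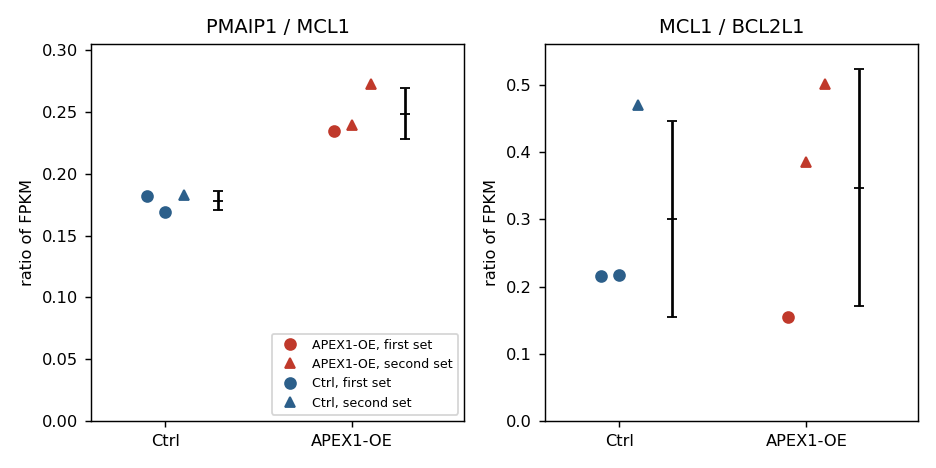
Ratio of FPKM per library for PMAIP1 to MCL1 (left) and MCL1 to BCL2L1 (right), with the mean and SD of each group (n = 3) beside the points and the library set shown by the symbol. The ratio of PMAIP1 to MCL1 was 0.234 to 0.272 in APEX1-OE and 0.170 to 0.183 in Ctrl, whereas that of MCL1 to BCL2L1 overlapped between the groups and followed the library set.

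PMAIP1 was the member with the largest difference, so its promoter is shown. It is the 250 bases before the RefSeq start on GRCh38, chr18:59899746-59899995 on the plus strand, with the match to the cyclic AMP response element core in capitals.
PMAIP1 promoter: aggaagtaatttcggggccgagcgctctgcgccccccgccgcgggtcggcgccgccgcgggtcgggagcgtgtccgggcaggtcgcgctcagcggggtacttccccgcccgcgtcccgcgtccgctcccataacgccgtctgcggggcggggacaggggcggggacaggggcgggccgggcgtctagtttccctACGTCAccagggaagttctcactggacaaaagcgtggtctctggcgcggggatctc
The core TGACGT was searched on both strands, and the match, 56 bases before the start, reads ACGTCA on this strand. Such a match was present in 7.10% of 35116 RefSeq promoters of the same length. The table held 7 of the members, of which BAD had a match too, and MCL1, BIK and BCL2L2 had no entry. The AP-1 motif TGANTCA, searched because APEX1 is known to act on AP-1, had no match before PMAIP1 or any of the other 6 members, and 6.57% of all promoters held it. The GC box GGGCGG matched 4 times before PMAIP1, and 42.6% of all promoters held at least 1. A match describes the sequence alone.

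The genes with the most similar profile over the 6 libraries were found for the most abundant member of each side. For BCL2L1 they were AGAP3, ATP5SL and ARFGAP2, whose centred log2 CPM differed from it by a root mean square of 0.0112, 0.0126 and 0.0167, where the SD of BCL2L1 itself was 0.314. For BAD they were ATP5D, MIIP and FASTK, at 0.0141, 0.0255 and 0.0281, where the SD of BAD was 0.464. Within the family, BAK1 lay nearest to BAD (0.0896) and BCL2L1 nearest to BAK1 (0.0938). These profiles all carried the difference between the library sets.

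Around the members, 70 of 72 listed genes of the same pathway were tested (BCL2L10 and BCL2L14 were too low), and 0 passed the adjusted threshold between APEX1-OE and Ctrl in edgeR. At an unadjusted p under 0.05 it was 1 of 70, the BH3-only gene HRK, with a log2 fold change of 0.86 (SE 0.319). HRK had 172, 203 and 107 reads in APEX1-OE and 68, 88 and 102 reads in Ctrl, and its adjusted p was 1. BCL2L15, the next gene of the 11 other family genes tested, stood at -0.68 on 4 to 19 reads per library, and the median over that list was 0.01.

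The mitochondrial apoptosis machinery, from cytochrome c and APAF1 to the caspases and their inhibitors, stood at a median of 0.01 (log2 fold change, 18 genes). BIRC3 and XIAP, inhibitors of apoptosis, stood at 0.63 and 0.34, each with an adjusted p of 1 in edgeR. BIRC3 had 905, 3497 and 3219 reads in APEX1-OE and 810, 1057 and 2701 reads in Ctrl, and was high in the second library set of both groups. Among the 20 protein partners and modifiers the median was 0.11. PIM1 and PIM2, kinases that phosphorylate BAD, stood at 0.23 and -0.24.

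The 11 transcription factors known to act on members had a median of 0.15, with CREB1 at 0.41 and FOXO3, an activator of BCL2L11, at 0.27. The 10 splicing regulators, several of which set the choice between BCL-XL and BCL-XS, had a median of 0.16. RBM25 and SRSF10 among them stood at 0.45 and 0.36. None of these genes passed, and 51 of the 70 stood above 0 with a median of 0.09. Over all genes tested, 9759 of 16971 stood above 0 with a median of 0.03. With upper-quartile normalization, 43 of the 70 stood above 0, against 8317 of 16971.

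With the library set as a term, 11 of the 70 genes were higher and 3 lower at an unadjusted p under 0.05, and the shares of all genes were 8.61% and 3.02%. HRK then stood at 0.95 (adjusted p = 0.302, edgeR) and PIM1 at 0.36 (adjusted p = 0.350, edgeR), while CREB1, FOXO3 and SRSF10 stood at 0.10, 0.0041 and 0.03. The median over the 70 genes was -0.01 in that fit, and 33 of them stood above 0, against 8750 of 16971 genes tested. In bulk RNA, fewer cells of a kind and less RNA per cell cannot be told apart, and this holds for every level above.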

How the data were processed

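RNA-seq counts and FPKM of 6 A549 libraries were used, and both groups come from the sample labels. Reads were trimmed by the authors (FASTX-Toolkit) and aligned to GRCh38 (TopHat2), and the authors deposited raw counts per gene from uniquely mapped reads. The authors also deposited FPKM, which are scaled to gene length and library depth. The counting tool, its annotation and its use of strand are not given in any source used here.

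Counts were filtered (filterByExpr, minimum count 10 and total 15), TMM-normalized and tested with the edgeR 4.0.16 quasi-likelihood test (robust, R 4.3.3) with condition as the only term and all 6 libraries, with Benjamini-Hochberg adjustment over all 16971 genes at 0.05. FPKM were tested with limma 3.58.1 on log2(FPKM + 1) at a mean FPKM of at least 0.5, which understates changes of low genes, and by exact permutation tests. The depth was 28131955 to 41009197 counts per library, and the closest pair (Ctrl replicates 1 and 2) differed by a chi-square of 3.63 per degree of freedom. Log2 CPM used a prior count of 2. The test was checked on simulated counts that held no difference between library sets. That check therefore does not show how the test behaves where such sets exist, as they do here.

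The members and lists were chosen with earlier results of these data known. Named genes were the members, APEX1, overlapping genes, the 2 genes of each list with the smallest p and the 3 most similar profiles. Other genes that overlap a member in the annotation but had few or no counts are not named. GENCODE 44 gave coordinates, GC content and coding sequence, with 31231 of 32192 identifiers matched, and RefSeq the promoters. Alternatives covered DESeq2 1.42.0, limma-voom, other normalizations and filters, each library left out, the replicate block, and the library set with a correction by splines of 5 degrees of freedom on GC content and length. Splicing, qPCR and cell assays were not analysed here.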

Additional observations from a re-analysis of the deposited data

How the results depend on the processing

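No member passed an adjusted p of 0.05 with condition alone under DESeq2, the RLE and upper-quartile normalizations, either other filter on low counts, limma-voom or any library left out, and FPKM gave 0 under every alternative. BCL2, BCL2L2 and PMAIP1 kept their sign throughout (PMAIP1 0.48 to 0.96 with a library left out; BCL2 was too low for the CPM filter). Signs turned for the others, and the cause was not tested. MCL1 stood at -0.038 with the library set. BAK1 stood at -0.0019 with limma-voom, BAD at 0.23 with the library set and 0.083 with the GC correction, and BID at 0.017 with the GC correction. BIK stood at 0.016 with DESeq2, 0.0095 with RLE, 0.21 with the library set and 0.15 with the GC correction. With each library left out in turn, BCL2L1 ranged from -0.22 to 0.26, BAK1 from -0.34 to 0.23, BAD from -0.51 to 0.16, BIK from -0.54 to 0.28 and BCL2L11 from -0.34 to 0.0093. Signs held but sizes moved for MCL1 (0.07 without APEX1-OE replicate 3, 0.44 without Ctrl replicate 3), BID (-0.07 on leaving out APEX1-OE replicate 3, -0.31 on leaving out replicate 1 of that group) and BCL2 (0.24 without Ctrl replicate 1, 0.65 without Ctrl replicate 3). APEX1 ranged from 2.36 to 2.46, and its adjusted p (edgeR) rose to 0.118 and 0.0674 on leaving out APEX1-OE replicates 2 and 3, and to 0.210 and 0.207 on leaving out Ctrl replicates 1 and 2. Among members, 5 were called with the library set without APEX1-OE replicate 3, and unadjusted 4 with the library set and 3 with the GC correction. Among the pathway genes, 24 of 71 were called without that library (16.6% of all genes) and 1 of 70 unadjusted with condition alone (0.695% of all genes). With the replicate number as a block, 0 members and 0 pathway genes were called, PMAIP1 stood at 0.67 and APEX1 at 2.43. The labels do not tie equal numbers together, and libraries of equal number deviated with correlations of 0.607, -0.521 and 0.700, so the numbers are not taken as pairs. With 3 libraries a group and condition alone, the lowest bound of the members' 95% intervals was -0.97 (BIK) and the highest 1.45 (PMAIP1), on the log2 scale. The intervals differed between members, and that of BCL2L2 was -0.26 to 0.60. Changes of a size within a member's own interval are not excluded for that member. The widest interval was that of BIK, at 48 to 87 reads per library.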
